A study of Mus musculus with 8 samples.

Results

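The IL-1 and IL-33 axis was examined through 10 genes of the mouse genome, chosen by symbol from the 54532 entries of the count table. They comprise 4 ligands (*Il1a*, *Il1b*, *Il18*, *Il33*), the receptor antagonist *Il1rn*, 4 receptor chains (*Il1r1*, *Il1r2*, *Il1rap*, *Il1rl1*) and the adaptor *Myd88*. RNAseq was performed on primary lung fibroblasts (pFBs) of female mice on a C57/black background, in 4 wild type (WT) and 4 homozygous (HOMO) libraries. HOMO mice carry human IGFBP5 (hIGFBP5), an insulin-like growth factor binding protein, inserted with CRISPR/Cas9 and driven ubiquitously by the Ef1a1 promoter. WT mice carry no insert. All pFBs were grown in complete medium and received no cytokine or drug. The comparison HOMO vs. WT asks how the expression of these genes differs in pFBs that make hIGFBP5. The number of mice behind the 8 libraries is not stated, so p-values measure the spread between these libraries, which may be technical in part.

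As background, IL-1 alpha and IL-1 beta bind IL1R1, which then recruits the co-receptor IL1RAP and, inside the cell, the adaptor MYD88, leading to NF-kappaB and MAPK activation. IL-33 is a nuclear alarmin of barrier and stromal cells, fibroblasts included. When released, it binds ST2, the product of *Il1rl1*, which uses the same co-receptor and adaptor and is best known on mast cells, innate lymphoid cells and regulatory T cells. IL1RN occupies IL1R1 without signalling, and IL1R2 is a decoy that binds IL-1 and cannot signal. In the lung both cytokine branches are studied in inflammation and fibrosis.

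The promoters of the 3 genes that passed the test below are shown, because these genes moved in the same direction. RefSeq (GRCm38.p6) gives windows of 250 bases before and 50 bases after a start site for 10 of 10 genes, 15 windows in all. Sequences run 5′ to 3′ on the gene's strand, and capitals mark every match on either strand to 5 motifs. The kappaB motif, bound by NF-kappaB, was searched by its usual consensus of 10 letters and the AP-1 motif as TGANTCA. The STAT motif was searched as TTCNNNGAA. The TATA motif, which places the start of transcription in some promoters, was searched as TATAAA. The GC box, bound by SP1 and common in promoters rich in C and G, was searched as GGGCGG. N stands for any base.
*Il33*, window 1 (chr19:29924863-29925162, plus strand): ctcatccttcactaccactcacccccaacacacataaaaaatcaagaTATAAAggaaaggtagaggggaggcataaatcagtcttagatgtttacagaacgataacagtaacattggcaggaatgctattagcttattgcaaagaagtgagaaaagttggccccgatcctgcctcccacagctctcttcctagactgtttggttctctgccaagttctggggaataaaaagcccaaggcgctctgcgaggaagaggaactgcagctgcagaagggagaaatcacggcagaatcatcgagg
*Il33*, window 2 (chr19:29945540-29945839, plus strand): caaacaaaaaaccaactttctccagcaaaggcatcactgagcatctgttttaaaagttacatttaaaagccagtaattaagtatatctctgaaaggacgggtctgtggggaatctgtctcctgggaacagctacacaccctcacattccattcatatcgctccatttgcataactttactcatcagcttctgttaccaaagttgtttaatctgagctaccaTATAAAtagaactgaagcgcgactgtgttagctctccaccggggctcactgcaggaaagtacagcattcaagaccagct
*Il1rap* (chr16:26581455-26581754, plus strand): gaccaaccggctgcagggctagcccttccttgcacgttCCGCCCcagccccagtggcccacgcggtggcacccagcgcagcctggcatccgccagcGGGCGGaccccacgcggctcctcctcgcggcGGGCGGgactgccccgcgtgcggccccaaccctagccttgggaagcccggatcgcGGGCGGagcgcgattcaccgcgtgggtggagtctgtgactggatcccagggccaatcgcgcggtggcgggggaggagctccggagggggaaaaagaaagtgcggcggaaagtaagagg
*Myd88* (chr9:119339969-119340268, minus strand): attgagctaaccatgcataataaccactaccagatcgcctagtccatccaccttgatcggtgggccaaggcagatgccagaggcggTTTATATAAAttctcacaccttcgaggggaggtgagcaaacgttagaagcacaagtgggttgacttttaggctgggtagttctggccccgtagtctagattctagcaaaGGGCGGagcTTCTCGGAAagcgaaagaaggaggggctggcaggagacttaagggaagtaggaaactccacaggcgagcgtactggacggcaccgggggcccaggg
Both *Il33* windows hold a single match, to the TATA motif, and the one in window 2 begins 29 bases before the start site. The *Il1rap* window holds 4 GC boxes. The *Myd88* window holds 1 GC box, 1 STAT match and 2 TATA matches that overlap on opposite strands. None of these 4 windows holds the letters of the kappaB or AP-1 motif. Among all 32851 windows of this length, the TATA motif occurs in 13.6%, the GC box in 35.7%, the STAT motif in 8.30%, the AP-1 motif in 7.81% and the kappaB motif in 8.46%. Among the other genes of the axis, *Il1r1* has a kappaB match in 1 window, and *Il1a* and *Il1rn* each have an AP-1 match. These matches are descriptions of the letters and not of binding.

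The authors trimmed the reads, aligned them to mm10 and counted them per gene. WT libraries held 17236521 to 29028769 counted reads and HOMO libraries 19009027 to 31987790. Levels are given as CPM, read counts scaled by TMM library size to a common depth, and 3 counts corresponded to 0.0908 to 0.172 CPM, a floor that covers counting error only. Some libraries of a genotype were close to identical. The biological coefficient of variation was 7.65% between WT1 and WT2, 4.71% between HOMO1 and HOMO2 and 5.07% between HOMO3 and HOMO4, whereas it ran from 30.05 to 56.4% in every other comparison within a genotype. Each genotype thus holds fewer clearly distinct profiles than libraries. The study describes the signature of HOMO groups 3 and 4 as weaker than that of groups 1 and 2. It reads this as hIGFBP5 expression that varies from mouse to mouse, which was not tested here. The 9 fibroblast markers summed to between 12937 and 16618 CPM in WT and between 14002 and 24381 CPM in HOMO, with none at 0. Single fibroblast markers did not all follow the sum. Their log2 fold changes were positive for 4 and negative for 5, with a median of -0.10. Of the 9, edgeR called 2, both downregulated, against 12.1% of all genes tested. The 13 macrophage markers, none of them at 0 in all libraries, summed to 142 CPM in WT1, 171 in WT2, 2281 in WT3 and 1334 in WT4. In HOMO1 to HOMO4 the same sum was 59.9, 65.3, 185 and 208 CPM. The median log2 fold change of the 12 tested macrophage markers was -2.71. With edgeR 0 of them were called and 8 had an unadjusted p under 0.05, as did 4573 of the 14150 genes tested. DESeq2 called 6 of 13, all downregulated, and limma-voom 1 of 12, upregulated. In such bulk libraries, fewer cells of a type and less RNA per cell cannot be told apart. Mouse *Igfbp5*, the endogenous counterpart of the inserted gene, was counted 130, 225, 7130 and 112 times in the WT libraries, in order of their numbers, and 24, 37, 37 and 57 times in the HOMO libraries. The study, in data it does not show, reports endogenous *Igfbp5* as undetectable in both groups, which differs from these counts. The human insert was not analysed here.

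Of the 10 genes, 9 had at least 1 count and 7 passed the filter on low counts. In edgeR's quasi-likelihood F test with Benjamini-Hochberg adjustment over the 14150 genes tested, *Il33*, *Il1rap* and *Myd88* were upregulated in HOMO pFBs with adjusted p-values below 0.05 and log2 fold changes above 0.6 in size. None of the other 4 tested genes was called. An unadjusted p under 0.05 was found for 5 of the 7, and for 4573 of the 14150 genes tested. Over all genes tested, 12.1% were called, 5.94% as upregulated and 6.18% as downregulated. The median log2 fold change was 0.28 over the 7 genes and -0.04 over all genes. The level of *Il33*, *Il1rap* and *Myd88* in every HOMO library was above that in every WT library, a pattern of 14% of all genes tested, against 13.4% with HOMO below WT. The other 4 overlapped between genotypes. With the near-identical libraries summed, which leaves 3 WT and 2 HOMO profiles, edgeR called 0 genes in the whole table, of which 2057 had an unadjusted p under 0.05. From the same libraries, the study lists *Il33* as upregulated and *Il1rn* as downregulated, and it names several of these receptors. The values here are thus no independent evidence on these genes. From a predicted accumulation over the cytokine pathway, the study lists *Il1rap*, *Il1r1* and *Il1rl1* as upregulated. That measure is not the fold change of each gene. Here *Il1rap* was upregulated, *Il1r1* was not called, and *Il1rl1* had a log2 fold change of -3.45 (edgeR adjusted p = 0.0961).

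**Figure D1:**
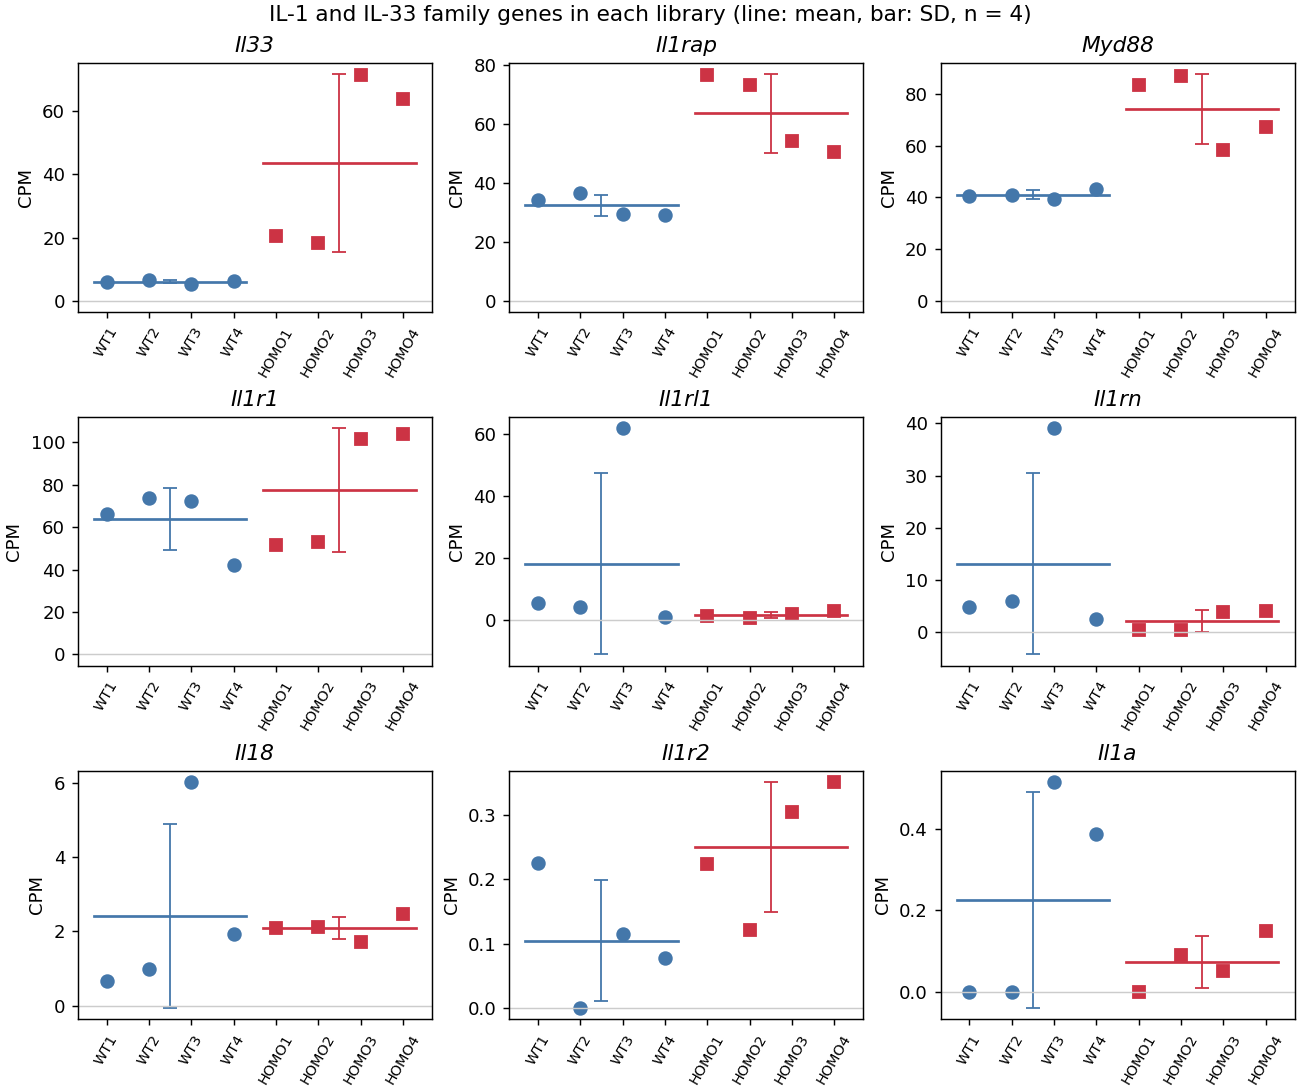
Level in CPM (vertical axes, linear, a scale of its own in each panel) of the 9 genes with a count in each of the 8 libraries (horizontal axes); circles are WT, squares HOMO, lines the mean and bars the SD of 4 libraries. The HOMO points of *Il33*, *Il1rap* and *Myd88* all lie above the WT points, and the WT means of *Il1rl1* and *Il1rn* are carried by WT3.

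Among the ligands, *Il33* (chr19:29925114-29960718, plus strand, GRCm38) was the one that was upregulated. Its level was 5.91, 6.43, 5.39 and 6.16 CPM in WT1 to WT4, and 20.4, 18.2, 71.5 and 64.0 CPM in HOMO1 to HOMO4. The WT libraries lay close together, whereas the HOMO libraries split into the pairs seen across the whole table, with HOMO3 and HOMO4 on average 3.51 times as high as HOMO1 and HOMO2. Means were 5.97 ± 0.442 CPM in WT and 43.5 ± 28.2 CPM in HOMO (SD, n = 4 each). The log2 fold change was 2.86 (SE 0.47), or 7.27-fold, with an adjusted p of 0.00894 by edgeR. The call was lost when near-identical libraries were summed, where the log2 fold change was 2.88 and edgeR's adjusted p 0.201. *Il33* did not follow the macrophage markers in WT, where WT3 and WT4 had the highest sums and *Il33* levels of 5.39 and 6.16 CPM. Within HOMO the order was shared. The marker sum was 185 and 208 CPM in HOMO3 and HOMO4, where *Il33* was higher, and 59.9 and 65.3 CPM in HOMO1 and HOMO2. Markers of epithelial and mesothelial cells, which line surfaces of the lung, were also examined. The 6 epithelial markers, with *Krt5* at 0 throughout, summed to 0.0574 to 0.542 CPM in WT and to 1.34, 6.54, 14.2 and 4.66 CPM in HOMO1 to HOMO4, and *Cdh1* was upregulated (log2 fold change 2.77, SE 0.76, edgeR adjusted p = 0.0462). The 4 mesothelial markers, none at 0, summed to 21.3, 23.3, 152 and 117 CPM in WT1 to WT4. In HOMO1 to HOMO4 they summed to 128, 129, 90.1 and 97.7 CPM. With edgeR 1 of them, *Wt1*, was upregulated (3.36, SE 0.67, edgeR adjusted p = 0.0166). In limma-voom, which called 25.3% of all genes tested, all 4 were upregulated. The part of macrophages, epithelial cells and mesothelial cells in the *Il33* result was not tested. Without WT3 and WT4, an alternative chosen after seeing the data, its log2 fold change was 2.81 with an edgeR adjusted p of 0.0270.

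*Il18* (chr9:50554827-50581840, plus strand), a ligand matured by caspase-1 that signals through its own receptor pair, was low throughout. It stood at 0.675, 0.987, 6.03 and 1.94 CPM in WT1 to WT4 and at 2.10, 2.12, 1.72 and 2.46 CPM in HOMO1 to HOMO4. WT3 lay above every other library and held 62.6% of the summed WT level, while the HOMO libraries stayed within a narrow range. The log2 fold change was -0.19 (SE 0.63, edgeR adjusted p = 0.866), and the WT and HOMO means were 2.41 ± 2.47 and 2.10 ± 0.2996 CPM. This direction depended on WT3. Without that library the log2 fold change was 0.79 (edgeR adjusted p = 0.191). In limma-voom with sample weights it was 1.13 and called (adjusted p = 0.00451), and without both WT3 and WT4 it was 1.32 and called (edgeR adjusted p = 0.0226).

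*Il1a* and *Il1b*, the agonists of IL1R1, were at or near the floor. For *Il1a*, WT1 and WT2 had 0 counts, WT3 had 9 and WT4 had 10, against 0, 3, 1 and 3 in the HOMO libraries in order. Only WT3 and WT4, the libraries with the highest macrophage marker sums, had more than 3 counts of it. A two-sided exact permutation test on CPM over the 70 assignments of libraries gave p = 0.429, where the smallest possible p is 0.0286. *Il1b* had 0 counts in all 8 libraries, which for a single library allows a level of up to 3 counts, or 0.0908 to 0.172 CPM.

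*Il1rn* (chr2:24336853-24351494, plus strand), the antagonist that competes with both IL-1 ligands, was at 4.89, 5.92, 39.1 and 2.63 CPM in WT1 to WT4 and at 0.357, 0.393, 3.80 and 4.16 CPM in HOMO1 to HOMO4. HOMO1 and HOMO2 lay below every WT library, but HOMO3 and HOMO4 lay above WT4, and they were on average 10.6 times as high as HOMO1 and HOMO2. Means were 13.1 ± 17.4 CPM in WT and 2.18 ± 2.09 CPM in HOMO (SD, n = 4 each), and WT3 held 74.4% of the summed WT level. HOMO vs. WT gave a log2 fold change of -2.60 (SE 1.10), with an edgeR adjusted p of 0.144. DESeq2, the tool of the study, called the gene (log2 fold change -2.59, adjusted p = 0.0299), and so did limma-voom (-1.77, adjusted p = 0.0488). DESeq2 called 16.5% and limma-voom 25.3% of all genes that they tested. Without WT3 the log2 fold change was -1.06 (edgeR adjusted p = 0.429), and without WT3 and WT4 it was -1.34 (edgeR adjusted p = 0.316). The summed macrophage markers were highest in WT3 and lowest in HOMO1 and HOMO2, as was *Il1rn*, although WT4, with the second highest sum, had the lowest *Il1rn* level of WT. The part of these cells in the result was not tested.

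**Figure D2:**
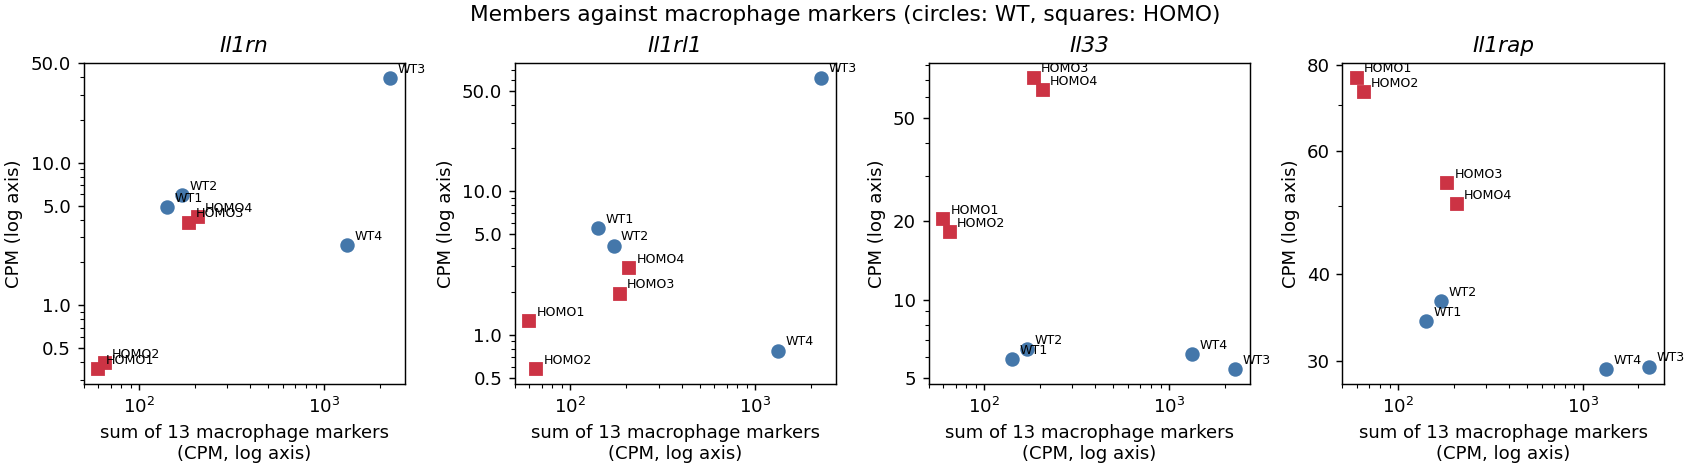
CPM of 4 genes (vertical axes, log scale) against the summed CPM of 13 macrophage markers (horizontal axes, log scale), one point per library, circles WT and squares HOMO. WT3, with a marker sum of 2281 CPM, has the highest *Il1rn* and *Il1rl1* levels, while *Il33* and *Il1rap* are low in WT3 and WT4 and are as low in WT1 and WT2, or nearly so, at marker sums of 142 and 171 CPM. Within HOMO, the marker sum is higher in HOMO3 and HOMO4, where *Il33* is higher and *Il1rap* lower than in HOMO1 and HOMO2.

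Among the receptors, *Il1rap* (chr16:26581704-26730117, plus strand), which encodes the co-receptor shared by IL1R1 and ST2, was upregulated. Its level was 34.1, 36.5, 29.4 and 29.1 CPM in WT1 to WT4, and 76.6, 73.0, 54.0 and 50.3 CPM in HOMO1 to HOMO4. The genotypes did not overlap, and HOMO1 and HOMO2 were on average 1.43 times as high as HOMO3 and HOMO4, the reverse of the order seen for *Il33*. Means were 32.3 ± 3.65 CPM in WT and 63.5 ± 13.2 CPM in HOMO (SD, n = 4 each). This gave a log2 fold change of 0.97 (SE 0.18), or 1.97-fold, with an edgeR adjusted p of 0.0123. With near-identical libraries summed it was 1.03 and not called (edgeR adjusted p = 0.293). The gene yields membrane and soluble forms of the co-receptor, which gene-level counts do not separate.

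*Il1r1* (chr1:40225080-40317257, plus strand), the signalling receptor of IL-1, was not called. It stood at 66.4, 74.0, 72.2 and 42.3 CPM in WT1 to WT4 and at 51.5, 52.9, 102 and 104 CPM in HOMO1 to HOMO4. HOMO3 and HOMO4 were above every other library and on average 1.97 times as high as HOMO1 and HOMO2, which lay within the WT range. Means were 63.7 ± 14.7 and 77.5 ± 29.3 CPM, and the log2 fold change was 0.28 (SE 0.29, edgeR adjusted p = 0.543).

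*Il1rl1* (chr1:40429570-40465415, plus strand), which encodes the IL-33 receptor ST2 in a membrane and a soluble form that gene-level counts do not separate, varied most among the WT libraries. It was at 5.51, 4.16, 61.9 and 0.774 CPM in WT1 to WT4 and at 1.25, 0.575, 1.93 and 2.91 CPM in HOMO1 to HOMO4. WT3 held 85.6% of the summed WT level, and WT4 lay below 3 of the 4 HOMO libraries. Means were 18.1 ± 29.3 CPM in WT and 1.66 ± 0.996 CPM in HOMO (SD, n = 4 each). The log2 fold change was -3.45 (SE 1.24), with an edgeR adjusted p of 0.0961. It was called by DESeq2 (-3.43, adjusted p = 0.0278), by limma-voom (-1.42, adjusted p = 0.0376) and by edgeR without WT4 (-3.85, adjusted p = 0.0487). Without WT3 it was -1.07 (edgeR adjusted p = 0.325), and without WT3 and WT4 -1.56 (edgeR adjusted p = 0.0729). Mast cell markers, which mark a cell type known for ST2, summed to 5.85 CPM in WT3 and 6.31 CPM in WT4, against 1.43 to 3.05 CPM in the other 6 libraries, and 1 of the 6 markers, *Tpsb2*, was at 0 throughout. Lymphoid markers summed to 0.731 to 5.45 CPM in WT and 0.0892 to 1.17 CPM in HOMO, with *Cd3d* and *Cd2* at 0. The mast cell markers did not share one pattern. *Ms4a2* had 31 counts in WT3, 2 in HOMO2 and 0 elsewhere, a peak in the same library as that of *Il1rl1*. *Cpa3* made up 5.50 CPM of the sum in WT4 and 2.47 CPM in WT3, and it was downregulated in HOMO (log2 fold change -4.06, SE 0.64, edgeR adjusted p = 0.00789). Only 2 mast cell markers were tested, and the other had a positive fold change that edgeR did not call. In limma-voom 1 of the 2 was upregulated and 1 downregulated. In WT4, where the macrophage sum was also high, *Il1rl1* was lower than in WT1 and WT2. The part of these cells in the level of WT3 was not tested.

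*Il1r2*, the decoy receptor, was counted 4, 0, 2 and 2 times in the WT libraries in order, and 5, 4, 6 and 7 times in the HOMO libraries. These counts overlapped on the CPM scale, where WT1 stood at 0.225 CPM and HOMO2 at 0.121 CPM, and the two-sided exact permutation test gave p = 0.0857.

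The receptor genes *Il1r2*, *Il1r1* and *Il1rl1*, lie in a cluster on chromosome 1, on the plus strand between 40074079 and 40551705, together with *Il1rl2*, *Il18r1* and *Il18rap*. *Il1rl2*, the receptor of IL-36 cytokines, lies between *Il1r1* and *Il1rl1*. It was at 28.0, 29.7, 21.4 and 15.8 CPM in WT1 to WT4 and at 4.28, 3.99, 15.9 and 12.03 CPM in HOMO1 to HOMO4. HOMO1 and HOMO2 were the lowest libraries, and HOMO3 overlapped WT4. The log2 fold change was -1.39 (SE 0.47) and was not called by edgeR (adjusted p = 0.0823), but was by DESeq2 (-1.40, adjusted p = 0.0213) and limma-voom (-1.74, adjusted p = 0.00278). *Il18rap*, the second chain of the IL-18 receptor, had a log2 fold change of 1.07 (SE 0.60, edgeR adjusted p = 0.252), with 2.70, 1.42, 2.07 and 0.232 CPM in WT1 to WT4 and 2.67, 2.51, 4.26 and 3.96 CPM in HOMO1 to HOMO4. *Il18r1*, its first chain, was counted 1, 1, 0 and 0 times in WT and 4, 6, 3 and 1 times in HOMO. The genes of the cluster therefore did not share one pattern over the libraries. *Il1rl1* peaked in WT3, *Il1r1* was highest in HOMO3 and HOMO4, and *Il1rl2* was lowest in HOMO1 and HOMO2. The median log2 fold change of all tested genes on chromosome 1 was -0.06, and no library's median there was shifted by more than 0.108.

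**Figure D3:**
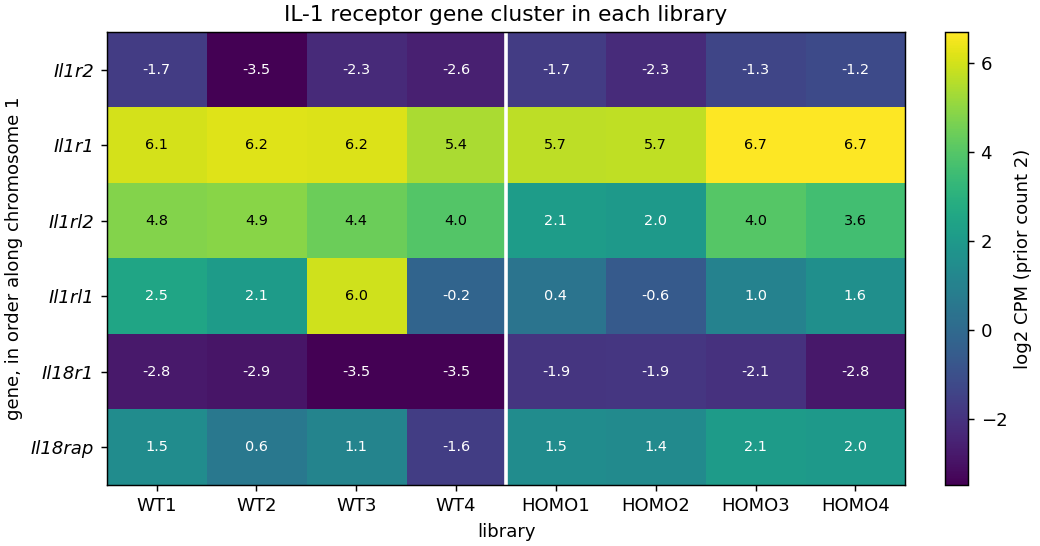
Heat map of log2 CPM (colour and printed value, prior count of 2) of the 6 receptor genes in their order along chromosome 1 (rows) in each library (columns), with a white line between WT and HOMO. *Il1r1* is the row with the highest values in all libraries but does not change in one direction, and *Il1rl1* stands out in WT3.

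*Myd88* (chr9:119335934-119341411, minus strand), the adaptor that links the receptors of this family and most Toll-like receptors to IRAK kinases, was upregulated. Its level was 40.5, 40.8, 39.3 and 43.4 CPM in WT1 to WT4, and 83.5, 87.1, 58.3 and 67.4 CPM in HOMO1 to HOMO4. The WT libraries were close together, and HOMO1 and HOMO2 were on average 1.36 times as high as HOMO3 and HOMO4, the same order as for *Il1rap*. Means were 41.0 ± 1.72 CPM in WT and 74.1 ± 13.6 CPM in HOMO (SD, n = 4 each). This corresponds to a log2 fold change of 0.85 (SE 0.15), or 1.81-fold, with an edgeR adjusted p of 0.0118. With near-identical libraries summed it was 0.87 and not called (edgeR adjusted p = 0.306). *Myd88* shares 11.3% of its exon bases with *Acaa1a* on the opposite strand, and whether the counting used strand is not given in the sources used here, so part of its counts may belong to that gene. *Acaa1a* was not called (log2 fold change 0.44, SE 0.36, edgeR adjusted p = 0.432) and stood at 49.6, 60.1, 158 and 95.0 CPM in WT1 to WT4 and 147, 149, 94.4 and 101 CPM in HOMO1 to HOMO4. It was highest in WT3, where *Myd88* was lowest, but in HOMO it had the same order of pairs as *Myd88*, with HOMO1 and HOMO2 above HOMO3 and HOMO4. The part of shared reads in the result was not tested. In WT3, tested genes of chromosome 9 were shifted by a median of 0.24 (log2) over the mean of the other WT libraries, a shift that *Myd88* did not share.

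Levels of different genes were compared per kilobase of exon. In WT the order was *Myd88* (15.9 ± 0.668 CPM per kilobase), *Il1r1* (10.02 ± 2.30), *Il1rap* (2.84 ± 0.321), *Il1rl1* (2.62 ± 4.25), *Il1rn* (2.37 ± 3.14), *Il18* (2.33 ± 2.40) and *Il33* (2.07 ± 0.153), where neighbours from *Il1rap* to *Il33* differed by less than the larger of their SDs. In HOMO the order was *Myd88* (28.8 ± 5.27 CPM per kilobase), *Il33* (15.1 ± 9.76), *Il1r1* (12.2 ± 4.60), *Il1rap* (5.59 ± 1.17), *Il18* (2.04 ± 0.291), *Il1rn* (0.394 ± 0.377) and *Il1rl1* (0.241 ± 0.144). *Il33* and *Il1r1* differed there by less than the SD of either, and *Il1rn* and *Il1rl1* by less than the SD of *Il1rn* but more than that of *Il1rl1*. Ranked by mean, *Il33* was last of the 7 in WT and second in HOMO. The gene of its receptor chain ST2 was last in HOMO. The WT rank of *Il33* rested on WT3, which held 85.6% of the summed WT level of *Il1rl1*, 74.4% of *Il1rn* and 62.6% of *Il18*. In WT1, WT2 and WT4, *Il33* lay above these genes per kilobase. *Il1a* was at 0.114 CPM per kilobase in WT and 0.0370 in HOMO, and *Il1r2* at 0.0547 and 0.131.

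**Figure D4:**
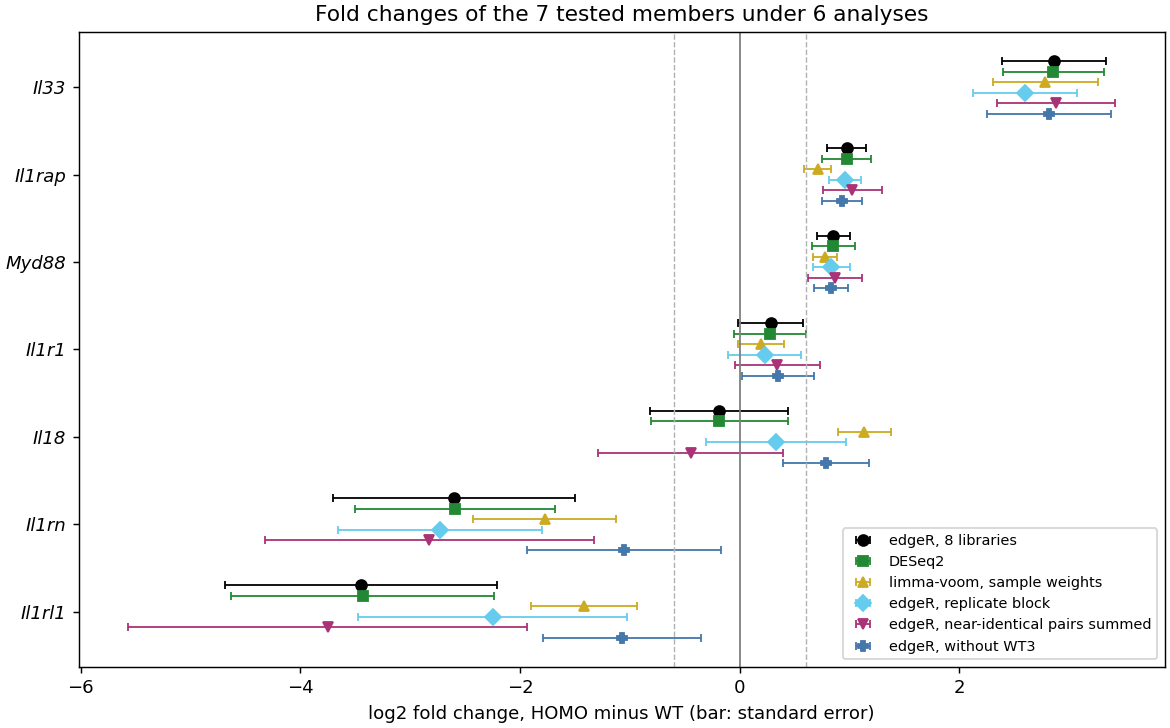
Log2 fold change, HOMO minus WT, of the 7 tested genes (horizontal axis) under 6 analyses (symbols), with bars for the standard error, a solid line at 0 and dashed lines at the fold threshold of 0.6 in either direction. *Il33*, *Il1rap* and *Myd88* lie beyond the threshold in all 6, *Il1rn* and *Il1rl1* move towards 0 without WT3, and *Il18* lies on both sides of 0.

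The nearest profiles to the 3 upregulated genes were taken by correlation. By Pearson r of log2 CPM over the 8 libraries, a description in which the libraries share genotype and the near-identical pairs, *Il33* was most like *Mn1* (0.984), *Gm3219* (0.982) and *Dkk1* (0.973). *Il1rap* was most like *Sowahd* (0.997), *Ell* (0.996) and *Zfp280d* (0.995), and *Myd88* most like *Nr5a2* (0.994), *Zfp2* (0.993) and *Zfp488* (0.991). Between the genes of the axis, r was 0.960 for *Il1rap* and *Myd88*, 0.669 for *Il1rap* and *Il33*, and 0.879 for *Il1rn* and *Il1rl1*.

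The rest of the pathway was followed in 5 lists with 64 genes in all, of which 59 had a count and 48 were tested. edgeR called 6 of the 48, 1 upregulated and 5 downregulated, a share near the 12.1% over all genes, and the median log2 fold change was 0.05. Among other ligands and binding proteins, the 4 genes of the IL-36 ligands and their antagonist had 0 counts in every library, and *Il1f10* had at most 3. *Il18bp*, the secreted inhibitor of IL-18, was the tested gene of this list, at 1.86, 2.66, 0.689 and 1.86 CPM in WT1 to WT4 and 3.21, 3.21, 2.74 and 3.61 CPM in HOMO1 to HOMO4. Every HOMO library lay above every WT library, but the gene was not called (log2 fold change 0.85, SE 0.39, edgeR adjusted p = 0.168). Among other receptors, 2 of 6 were tested, *Il1rl2* and *Il18rap* above. *Sigirr*, an inhibitory receptor, had at most 3 counts per library, *Il1rapl1* had 4 counts in WT4 and 0 elsewhere, and *Il1rapl2* had 2 counts in WT2 and 0 elsewhere.

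Signal transduction had 19 tested genes, a median log2 fold change of 0.05 and 2 calls, in opposite directions. *Ikbkb*, the catalytic kinase that releases NF-kappaB from its inhibitor, was upregulated, at 65.0, 69.97, 58.5 and 65.5 CPM in WT1 to WT4 and 112, 116, 90.3 and 90.3 CPM in HOMO1 to HOMO4 (log2 fold change 0.66, SE 0.13, edgeR adjusted p = 0.0181). *Tollip*, which restrains IRAK1 at the receptor, was downregulated, at 83.6, 84.1, 110 and 126 CPM in WT and 61.6, 60.2, 63.4 and 62.2 CPM in HOMO (-0.71, SE 0.16, edgeR adjusted p = 0.0242). Neither gene overlapped between genotypes, a pattern of 14% of all genes tested with HOMO above WT and 13.4% with HOMO below. Both fold changes lay close to the threshold of 0.6. Genes of this list without a call, named after their values were seen, did not overlap either. *Tab1* and *Tab3* were higher in every HOMO library than in any WT library, and *Peli1*, *Ube2n* and *Nfkbia* were lower. *Nfkbia*, the NF-kappaB inhibitor, named after its values were seen, had an edgeR adjusted p of 0.0316 but a log2 fold change of -0.58, under the threshold.

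Maturation and release had 8 tested genes, a median log2 fold change of -0.52 and 1 call. *P2rx7*, the ATP-gated channel that triggers inflammasome activation, was downregulated, at 23.7, 20.03, 12.6 and 5.61 CPM in WT1 to WT4 and 0.312, 0.182, 3.40 and 2.11 CPM in HOMO1 to HOMO4 (log2 fold change -3.39, SE 0.90, edgeR adjusted p = 0.0414). Its highest WT levels were in WT1 and WT2, where the macrophage sums were lowest among WT. Within HOMO, *P2rx7* and the macrophage sum were both higher in HOMO3 and HOMO4 than in HOMO1 and HOMO2. The part of macrophages in the *P2rx7* result was not tested.

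Of the genes that IL-1 is known to induce in fibroblasts, 18 were tested, with a median log2 fold change of 0.16. The 3 calls, beside 12.1% of all genes tested, were all downregulated. Their genotypes did not overlap, with HOMO below WT, a pattern of 13.4% of all genes tested. *Il6*, a cytokine, was at 15.5, 13.6, 4.82 and 27.4 CPM in WT1 to WT4 and 1.47, 1.91, 2.48 and 1.75 CPM in HOMO1 to HOMO4 (log2 fold change -3.01, SE 0.49, edgeR adjusted p = 0.00855). *Icam1*, an adhesion molecule for leukocytes, was at 171, 176, 59.7 and 41.9 CPM in WT and 10.2, 8.41, 17.3 and 20.7 CPM in HOMO (-2.99, SE 0.54, edgeR adjusted p = 0.0123). *Ccl7*, a monocyte chemokine, was at 109, 96.6, 197 and 34.1 CPM in WT and 14.0, 17.7, 25.2 and 25.1 CPM in HOMO (-2.41, SE 0.48, edgeR adjusted p = 0.0162). The other 15 tested genes of this list had 10 positive and 5 negative fold changes and were not called. Some of them, named after their values were seen, did not overlap between genotypes either. *Cxcl5* and *Lif* were higher in every HOMO library than in any WT library, and *Ptgs2* and *Ptges* were lower. The study names *Il6*, *Ccl7* and *P2rx7* from the same libraries, which makes their directions no independent evidence. All 6 calls were lost when near-identical libraries were summed.

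**Figure D5:**
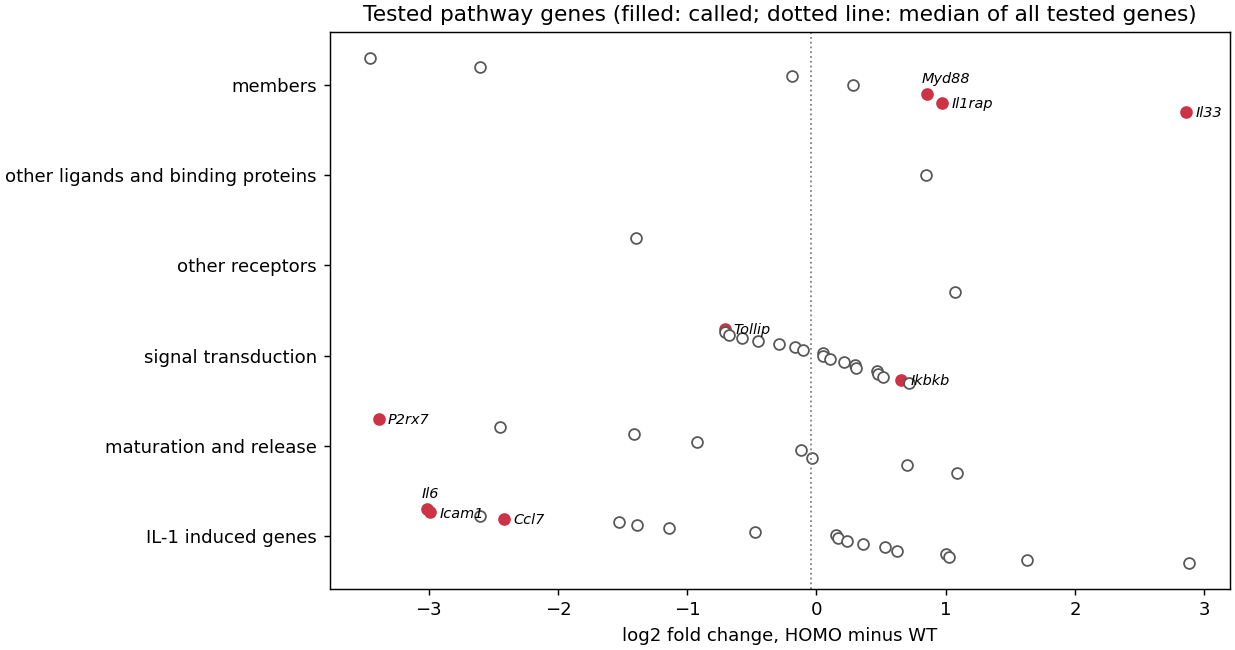
Log2 fold change, HOMO minus WT (horizontal axis), of the tested genes in the axis and in 5 pathway lists (rows), one point per gene, filled where edgeR called it and named, with a dotted line at the median of all tested genes, -0.04. The called genes of the axis lie to the right, and 5 of the 6 called pathway genes lie to the left.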

How the data were processed

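RNAseq libraries of 4 WT and 4 HOMO pFB samples were analysed, named by genotype and replicate number. Per the paper's methods and the submitters' notes, the authors made poly-A libraries, trimmed reads (fastp), mapped them to mm10 (STAR), assigned them to genes (featureCounts) and deposited raw counts per gene, with no normalization. Counting strand is not given in the sources used here. The deposited table is marked as having an outlier out, and whether a library was dropped beforehand is not stated. All columns of the table were used. Members, lists and alternatives were chosen with earlier results of these data known.

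The software was R 4.3.3, edgeR 4.0.16 (TMM, filterByExpr, quasi-likelihood F test, two-sided), limma 3.58.1 and DESeq2 1.42.0. Genes were called at a Benjamini-Hochberg adjusted p under 0.05 over 14150 genes and a log2 fold change above 0.6 in size, the study's thresholds. The SE is the size of the log2 fold change over the root of F. Scripts were tested on simulated data. Genes outside the test were compared by exact permutation on CPM. Tables and figures used Python 3.11.15, pandas 2.3.3, numpy 2.4.6, scipy 1.17.1 and matplotlib 3.10.9. Positions and exon lengths are from GENCODE M21 (GRCm38), matched by symbol for 53669 of 54532 entries.

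Named were all 10 members, each called pathway gene, up to 2 genes of largest fold change in a list with no call, other IL-1 family ligands and receptors with a count, the 3 genes most correlated with each called member, and markers of fibroblasts, macrophages, mast cells, lymphoid, epithelial, endothelial and mesothelial cells. Endothelial markers summed to 1.41 to 4.99 CPM in WT and 1.69 to 2.74 CPM in HOMO. Alternatives were DESeq2, limma-voom with sample weights, RLE and upper-quartile normalization, no filter, robust dispersion, a minimum of 1 CPM in 4 or more libraries, the replicate number as a block, near-identical libraries summed or reduced to 1, no fold threshold, and each library left out. Leaving out WT3 and WT4 together was added after seeing the data.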

Additional observations from a re-analysis of the deposited data

Results flagged for a closer look

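Of 37 groups of 4 libraries checked for a library far from the rest, 1 was picked out. For 4 independent, normally distributed values, the rule picks out about 1 in 20 groups. Near-identical libraries and equal counts of 0 are not such values, so that rate does not hold here. *Il1rapl1* in WT4 stood at -2.04 on the log2 CPM scale, against -3.49 in each of the other 3 WT libraries, which had 0 counts. The value rests on 4 counts in WT4, and beside 3 equal values any WT4 count above the floor would have been picked out.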

How the results depend on the processing

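*Il33*, *Il1rap* and *Myd88* kept their direction under all 19 alternatives and their call under 17. The exceptions were the 2 that reduce near-identical libraries. Summed, their edgeR adjusted p was 0.201, 0.293 and 0.306, and with 1 library of each it was 0.214, 0.291 and 0.363. Their log2 fold changes ranged from 2.52 to 3.12 for *Il33*, 0.71 to 1.09 for *Il1rap* and 0.77 to 0.96 for *Myd88*. Those of *Il1rl1* (-3.85 to -1.07) and *Il1rn* (-3.10 to -1.06) stayed negative, with 3 and 2 alternatives that called them. The direction of *Il18* reversed in limma-voom (1.13), with the replicate block (0.33) and without WT3 and WT4 (1.32), and over single libraries left out it ranged from -0.50 to 0.79.

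DESeq2 called 2913 genes (5 of the 10 members, 12 pathway genes), limma-voom 3573 (6 and 18), the replicate block 947 (3 and 2), and leaving out WT3 and WT4 3117 (4 and 14), against 1716 (3 and 6). Both reductions of near-identical libraries called 0 genes, 0 members and 0 pathway genes, with 2057 and 1753 genes at an unadjusted p under 0.05. Single libraries left out gave 507 (without HOMO1) to 2192 genes (without WT3), 3 to 4 members, and 1 (without HOMO1) to 9 pathway genes (without WT3). The cause was not tested. Same-numbered WT and HOMO libraries deviated from their group means with correlations of -0.0910, -0.0424, 0.0141 and -0.124, and no library correlated best with its own number, so the numbers were not taken to pair samples. Depth limits *Il1b*, at 0 counts throughout, and *Il1a* and *Il1r2*, at 10 counts or fewer in every library.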

Other observations

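The ratio of *Il33* to *Il1rl1* counts, ligand to receptor and not scaled for gene length, was 1.07, 1.55, 0.0871 and 7.95 in WT1 to WT4 and 16.3, 31.6, 37.1 and 22.0 in HOMO1 to HOMO4. The lowest HOMO ratio was thus above the highest WT ratio, although *Il1rl1* itself overlapped between genotypes. This ratio was chosen after the values were seen and was not tested. The ratio of *Il1rap* to *Il1r1* counts was 0.407 to 0.689 in WT, 1.49 and 1.38 in HOMO1 and HOMO2, and 0.530 and 0.485 in HOMO3 and HOMO4. The HOMO libraries thus split by near-identical pair, and the second pair lay within the WT range. This ratio was likewise not tested.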
